A study of Homo sapiens with 4 samples.

Results

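SFN and the 6 YWHA genes encode the 14-3-3 proteins of human cells. They were taken from a deposited comparison of OSSL_325096 with DMSO by gene name, and all 7 were found among its 57773 gene rows, 1 row for each member. The family was selected on the fold changes of that same comparison, in which SFN stood among the highest genes, so the fold changes of the members are a description and were not tested. KMS12PE and KMS11 cells received OSSL_325096 at 1 µM, and controls of the same lines received DMSO, a solvent. The labels name the compound by this code alone. Both are established multiple myeloma lines, a cancer of antibody-secreting plasma cells, and both grew in RPMI-1640 medium with serum. Each line gave 1 library per treatment, so the 2 libraries of a treatment differ in line, and neither line had a replicate of its own. How long the cells were exposed is not stated in the labels.

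14-3-3 proteins are dimers that clasp short phosphorylated serine or threonine motifs on other proteins, their clients. Binding can hide a localisation signal, hold an enzyme inactive or keep a client in the cytoplasm. SFN encodes 14-3-3 sigma, also called stratifin, which was first described in epithelial cells, favours pairing with itself and can keep cyclin B1 and CDK1 out of the nucleus after DNA damage. Its promoter is known to be silenced by DNA methylation in several carcinomas. YWHAB, YWHAE, YWHAG, YWHAH, YWHAQ and YWHAZ encode the beta, epsilon, gamma, eta, theta and zeta proteins, which are widely expressed.

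SFN also differs from the others in gene structure. It differs in the sequence before its start from the members for which that sequence was found. On hg19 it lies on chromosome 1 from 27189633 to 27190947, on the plus strand, and the canonical transcript of GENCODE 44 has 1 exon. YWHAG (chromosome 7, 75956116 to 75988348) and YWHAH (chromosome 22, 32340447 to 32353590) have 2 exons in their canonical transcripts. YWHAB (chromosome 20, 43514317 to 43537173), YWHAE (chromosome 17, 1247566 to 1303672) and YWHAQ (chromosome 2, 9724101 to 9771143) have 6, as does YWHAZ. The 250 bases before the start of SFN and of YWHAH, from RefSeq on GRCh38.p14, are shown. They lie at opposite ends in CpG content among the members for which this stretch was found. The capitals mark each CpG, the site of DNA methylation. The SFN stretch is chr1:26862899-26863148, plus strand, and the YWHAH stretch is chr22:31944285-31944534, plus strand.
SFN: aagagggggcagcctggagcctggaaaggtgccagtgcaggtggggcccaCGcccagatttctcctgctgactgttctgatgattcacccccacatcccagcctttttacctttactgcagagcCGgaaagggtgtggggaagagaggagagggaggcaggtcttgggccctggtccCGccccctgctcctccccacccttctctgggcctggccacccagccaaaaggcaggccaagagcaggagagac
YWHAH: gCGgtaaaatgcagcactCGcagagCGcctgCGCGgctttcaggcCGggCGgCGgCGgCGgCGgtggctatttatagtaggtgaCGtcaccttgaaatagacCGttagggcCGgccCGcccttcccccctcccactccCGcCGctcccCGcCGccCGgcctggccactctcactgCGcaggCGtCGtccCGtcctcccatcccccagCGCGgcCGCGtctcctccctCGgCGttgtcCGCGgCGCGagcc

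The SFN stretch held 3 CpGs and the YWHAH stretch 34. The stretches of YWHAB, YWHAG, YWHAQ and YWHAE held 21, 23, 28 and 29. YWHAZ had no entry, so 6 of the 7 members were matched. Over 35114 promoters the median was 11, so SFN lay below it and the other matched members above it. The CpG count divided by the count that base composition gives was 0.12 for SFN and between 0.76 and 1.08 for the others, although the GC content of the SFN stretch, 62.8%, was not far below theirs (70.4% to 72.0%). A heat shock element core was searched as GAANNTTC or TTCNNGAA, each of which reads the same on both strands. It matched in 0 of the 6 stretches and in 11.6% of all promoters. DNA methylation was not measured, and these counts describe the sequence before the start alone. CpGs after the start, those in the SFN exon included, were not counted.

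SFN was the 1 member with a fold change far from 1. The authors' deposited table gave it a log2 fold change of 1.34, a 2.53-fold higher level with OSSL_325096, and a group mean of 67.1 RPKM. The group mean is that of the treatment with the higher mean. RPKM scales reads by the length of the transcript and the depth of the library, so levels of different genes can be set side by side. The fold change is read as compound over DMSO from the title of the table, since its columns do not say. Dividing the group mean by the fold change puts SFN at 67.1 RPKM with OSSL_325096 and 26.5 RPKM with DMSO, if the deposited fold change is the ratio of the group means, which the file does not state. Values of the 4 libraries were not analysed here, so whether both lines had more SFN with the compound is not known. In bulk RNA, a change in the share of cells that hold SFN mRNA and a change in its amount per cell cannot be told apart.

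The spread implied for SFN was wide. The p-value of SFN in the authors' deposited table was 0.437, which corresponds to a standard error of 1.72 on the log2 scale on the assumption of a normal test with both tails. The file does not name the test. This implied standard error is used throughout. The libraries of a treatment are of different lines, so it can include the difference between lines. It is therefore not a measured spread of the treatment effect. The matching 95% interval ran from -2.03 to 4.71, or from 0.244-fold to 26.2-fold. Zero change therefore lies well inside the interval. The deposited false discovery rate was 0.999995 for SFN, as for every gene with a fold change. Benjamini-Hochberg adjustment of the authors' p-values over the 11324 genes whose group mean reached 1 RPKM gave 1.00 for SFN, and 0 of the 7 members passed 0.05 with it, as did 0.0% of all these genes. At an unadjusted p under 0.05 the counts were 0 of 7 members and 5 of 11324 genes (0.0442%) by the authors' test, the one test used here. That share of all genes is far below the 0.05 that a well-fitted test gives when nothing changes. The implied standard errors and intervals may therefore be too wide.

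The widely expressed members lay within 1.21-fold of 1. In the authors' deposited table YWHAG had a log2 fold change of 0.27 and a group mean of 110.9 RPKM (implied SE 0.99). The remaining 5 were below 0. YWHAB had -0.26 (66.5 RPKM, implied SE 0.94), YWHAZ -0.23 (60.1 RPKM, implied SE 1.02) and YWHAE -0.23 (110.2 RPKM, implied SE 0.94) in the authors' deposited table. YWHAQ had -0.16 (104.1 RPKM, implied SE 0.94) and YWHAH -0.06 (46.3 RPKM, implied SE 0.86) in the authors' deposited table. Each of these 6 values, like the SFN value, was smaller than its implied standard error. By the authors' test the p-values of the 6 ran from 0.779 to 0.944. Their intervals still allow sizeable differences, for YWHAB from -2.10 to 1.58 and for YWHAG from -1.67 to 2.21, so equal levels under both treatments were not shown.

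**Figure D1:**
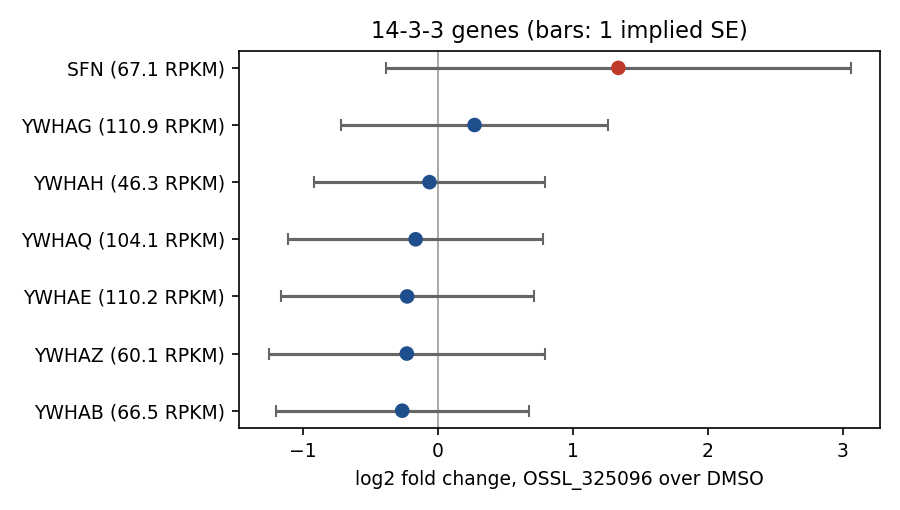
Horizontal axis: log2 of the fold change, OSSL_325096 over DMSO, for the 7 14-3-3 genes, with SFN in red and the group mean in RPKM beside each name; bars are 1 implied SE. SFN, at 1.34, stands apart from the 6 YWHA genes, which lie between -0.26 and 0.27, and its bar, 1.72, is the longest and crosses 0.

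As a family the genes had a median log2 fold change of -0.16, or -0.19 over the 6 genes without SFN, against 0.01 over all 11324 genes (quartiles -0.21 and 0.22). At least 1.5-fold higher with the compound was 1 of 7 members, SFN, where 4.95% of all genes were. At least 1.5-fold lower were 0 of 7 members, and 4.95% of all genes, so that either way the share of all genes was 9.9%. At least 2-fold higher was again SFN alone among the members, and 0.989% of all genes. The members were chosen with these values known, so nothing is read from the counts.

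By level, the highest members were YWHAG, YWHAE and YWHAQ at 104.1 to 110.9 RPKM, then SFN, YWHAB and YWHAZ at 60.1 to 67.1 RPKM, and YWHAH at 46.3 RPKM. The mean is that with OSSL_325096 for SFN and YWHAG and that with DMSO for the other 5, if the sign of the fold change tells which was higher. With DMSO the implied level of SFN, 26.5 RPKM, is the lowest of the 7, below the 46.3 RPKM of YWHAH. No spread over samples stands behind these means, so neighbours in this order cannot be told apart. All 7 were among the more abundant genes, with SFN 619th and YWHAH 939th by level of 11324. On the assumption that the fold change is the ratio of the group means, the 7 genes summed to 516 RPKM with OSSL_325096 and 506 RPKM with DMSO. SFN made up 12.99% of that sum with OSSL_325096 and 5.25% with DMSO. The 6 YWHA genes summed to 449 RPKM with OSSL_325096 and 479 RPKM with DMSO.

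SFN ranked 45th by log2 fold change among the 11324 genes, 13th among the 6711 genes of at least 5 RPKM and 4th among the 862 genes of at least 50 RPKM. Above it in the last set were HSPA1B, an inducible HSP70 chaperone, HSPA8, the constitutive HSP70, and CDC20, an activator of the anaphase-promoting complex. The authors' deposited table puts SFN and CDC20 alike at 1.34, while the implied SE was 1.72 for SFN and 0.95 for CDC20. HSPA1A and HSPA1B are near-identical copies, so the value of HSPA1B (2.46 in the authors' deposited table) is uncertain.

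**Figure D2:**
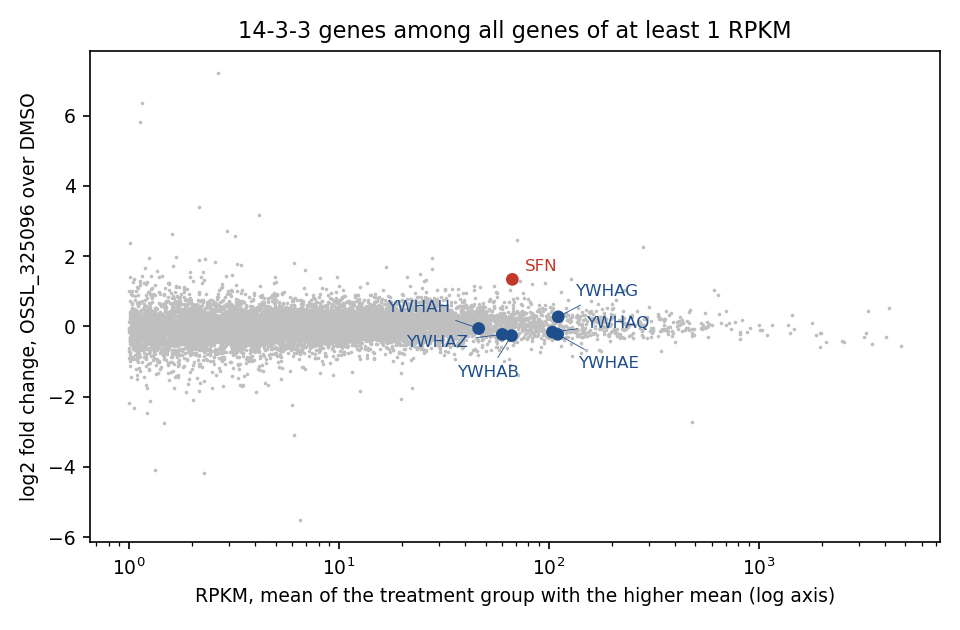
Vertical axis: log2 of the fold change, OSSL_325096 over DMSO; horizontal axis: group mean in RPKM, on a log scale; points are 11324 genes (grey), SFN (red) and the YWHA genes (blue). The YWHA genes lie within the band of genes of like level, while SFN, at 67.1 RPKM and 1.34, lies at its upper edge.

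Genes of like level give a scale for the implied SE of SFN. At 1.72, SFN had a larger implied SE than 571 (98.1%) of the 582 other genes with a group mean within 1.5-fold of its own, whose median was 0.94. For YWHAB, at nearly the same level, 277 of 588 genes had a smaller implied SE. The YWHAZ value exceeded that of 86.8% of its 668 genes of like level, and the YWHAH value exceeded that of 6.15% of 910. Only 1 of the 582 genes had a higher log2 fold change than SFN.

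Genes that the translocations of these lines drive in either line were looked up after the SFN value was seen. CCND1, the cyclin D1 gene driven in KMS12PE, had an implied SE of 1.83, larger than that of 289 of 290 genes of like level. FGFR3 and MAF, driven in KMS11, had 2.002 and 1.94, larger than all 60 and all 675 genes of like level. WHSC1, also driven in KMS11 and now called NSD2, had 1.04, larger than that of 1473 of 1750 genes. Whether SFN differs between the lines was not tested, since values of each line were not analysed here.

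**Figure D3:**
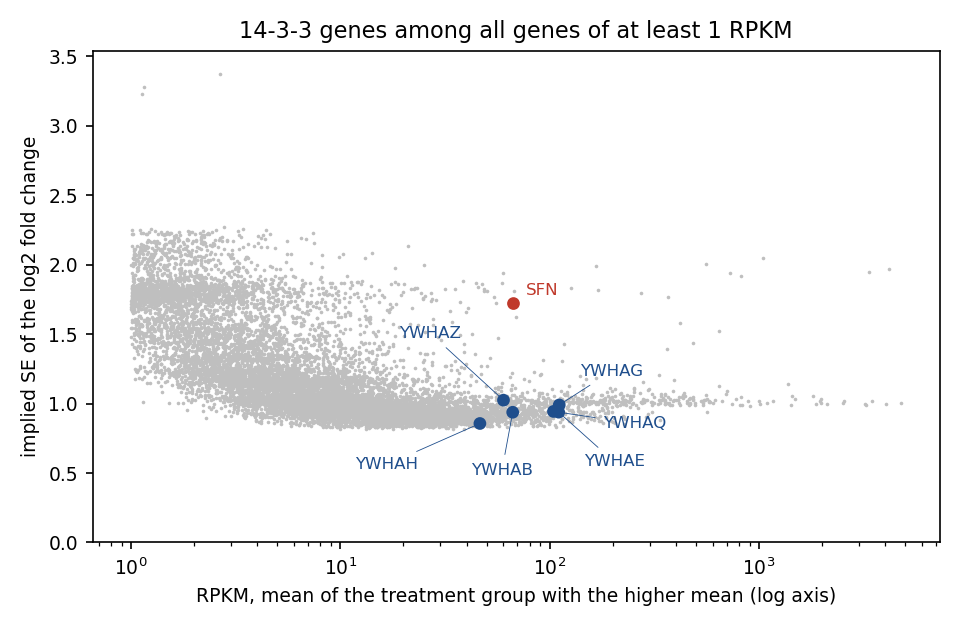
Vertical axis: implied SE on the log2 scale; horizontal axis: group mean in RPKM, on a log scale; points are 11324 genes (grey), SFN (red) and the YWHA genes (blue). SFN, at 1.72, lies above the dense band around 0.94 in which the YWHA genes, at 0.86 to 1.02, are found.

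The genes nearest to SFN in log2 fold change and log2 group mean together, by Euclidean distance over the 1 fold change and 1 level given for each gene, were FKBP4, MANF, CCNB1, AHSA1 and STIP1. The distance uses the fold change for which SFN was selected, so genes near it are high as well. Nothing is read from what they encode. FKBP4, an HSP90 co-chaperone, was the nearest, 0.13 log2 units away, with 1.28 and 72.9 RPKM in the authors' deposited table. MANF, a secreted factor of the endoplasmic reticulum, had 1.03 and 65.6 RPKM there, and CCNB1, the cyclin B1 gene, had 1.20 and 83.1 RPKM. AHSA1, an activator of the HSP90 ATPase, had 1.14 in the authors' deposited table, and STIP1, which links HSP70 to HSP90, had 0.96. The implied SE of SFN, 1.72, was above those of these 5 genes, which ran from 0.91 to 0.99. Nearest on the chromosome with a fold change were ZDHHC18, a palmitoyltransferase gene 5540 bases before SFN (0.39, 15.5 RPKM in the authors' deposited table), and GPN2, a GTPase gene 11677 bases after it (0.31, 6.96 RPKM).

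Sequence shared with other genes bears on how reads were assigned, and the labels give neither the counting rule nor the read length. The coding sequence of SFN was 61.9% to 70.1% identical to those of the 6 relatives, closest to YWHAG, and the longest run of identical bases in the canonical transcripts was 27, with YWHAQ. Among the 15 pairs of YWHA genes identity ran from 64.6% to 78.9%, highest for YWHAG and YWHAH, which shared a run of 39 bases. YWHAZ (chromosome 8, 101928753 to 101965616) and YWHAQ have processed copies elsewhere in the genome, and 11 such rows were found by name, 7 for YWHAZ and 4 for YWHAQ. Of these rows 10 were listed at 0 RPKM in the authors' deposited table. YWHAZP4 was listed at 0.0574 RPKM with a log2 fold change of -2.31, and 555 genes carry its p-value of 0.463. YWHAZP3 shares a run of 221 bases with YWHAZ, so the YWHAZ level is uncertain to the extent that such reads were split or dropped. YWHAH overlaps C22orf24, a noncoding gene on the opposite strand, which was listed at 0.0689 RPKM in the authors' deposited table.

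SFN had the most GC-rich transcript of the family, 62.8%, above 91.3% of measured genes, and the fold changes of all genes moved with GC content. The genes were put into 5 equal groups by GC content. In the group that holds SFN, the highest (GC content of at least 59.3%), the median log2 fold change was 0.23. YWHAB, YWHAE, YWHAG, YWHAQ and YWHAZ were in a group with a median of -0.12, and YWHAH in the middle group, with a median near 0 (-0.0028). With the trend in GC content and transcript length removed, SFN had 1.12, YWHAG 0.34, and YWHAB, YWHAZ, YWHAE, YWHAH and YWHAQ had -0.11, -0.10, -0.10, -0.04 and -0.01. The part of GC content in the SFN value was not tested.

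Known regulators of SFN were set beside it. Of 9 listed regulators 8 had at least 1 RPKM, 3 above 0 and 5 below 0, with a median of -0.09 against 0.01 over all genes, and 0 passed the adjusted test. TP63, a transcription factor gene active in epithelia, had -1.64 at 1.91 RPKM with an implied SE of 1.93, and TP73 was listed at 0.0123 RPKM in the authors' deposited table. The DNA methyltransferase genes DNMT1, DNMT3A and DNMT3B had -0.17, 0.27 and 0.52 in the authors' deposited table. DNMT3B was the most abundant of them at 58.3 RPKM. BRCA1, a DNA repair gene also linked to SFN transcription, had -0.30, and the ubiquitin ligase genes TRIM25 and COP1 (listed as RFWD2), whose proteins direct 14-3-3 sigma to degradation, had -0.01 and 0.06 in the authors' deposited table.

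Other genes of G2 phase and of cell cycle arrest were listed beside SFN. Of 6 listed genes 5 had at least 1 RPKM, with a median of -0.07, 0 of the 5 at least 1.5-fold from 1 where 9.9% of all genes were, and 0 passed the adjusted test. CDKN1A, the gene of the inhibitor p21, had -0.07 in the authors' deposited table (implied SE 1.57). GTSE1, a G2-phase gene, had 0.56, CCNG1, the cyclin G1 gene, had -0.53, GADD45A, a stress sensor, had 0.13 and BTG2, an antiproliferative gene, had -0.13 there. RPRM, the G2 arrest gene reprimo, was listed at 0.133 RPKM.

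Client genes of 14-3-3 proteins, 50 in all, had a median log2 fold change of 0.16 over the 47 with at least 1 RPKM, 28 above 0 and 19 below, while 51.0% of all genes were above 0 and their median was 0.01. At least 1.5-fold higher were 2 of the 47 and at least 1.5-fold lower 3, where 4.95% of all genes were in each direction, and 0 passed the adjusted test. With the GC content and length trend removed the median was 0.08. The client protein, not its mRNA, is what 14-3-3 binds, and phosphorylation of clients was not measured.

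Cell cycle clients had 3 of 8 genes above 0 and a median of -0.08. With the GC content and length trend removed that median was 0.11, so its sign depends on the processing. CCNB1 was the highest (1.20, implied SE 0.91), while CDK1, its kinase partner, had -0.11 in the authors' deposited table. The CDC25 phosphatase genes, whose proteins are held in the cytoplasm by 14-3-3, had 0.14 for CDC25A, 0.52 for CDC25B and -0.53 for CDC25C in the authors' deposited table. WEE1, the kinase that opposes them, had -0.41. Cell death clients had 3 of 5 above 0. Their median was 0.11, and -0.07 with the trend removed. BCL2L11, which encodes the cell death protein BIM, had -0.83 in the authors' deposited table (implied SE 0.92), MAP3K5, the stress kinase ASK1, had -0.41, BAD, a death-promoting BCL2 relative that 14-3-3 sequesters, had 0.47 and BAX 0.27.

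Signalling clients had 8 of 11 genes above 0 and a median of 0.23, or 0.17 with the GC content and length trend removed. IRS2, an insulin receptor substrate, had 0.86 at 3.07 RPKM in the authors' deposited table (implied SE 1.75), and ULK1, the kinase that starts autophagy, had -0.64. The kinase genes BRAF and ARAF had -0.52 and 0.23 in the authors' deposited table. BCR, a regulator of small GTPases, had 0.49. Transcription clients had 8 of 14 above 0 and a median of 0.09, which was -0.04 with the trend removed. HDAC9, a class IIa histone deacetylase gene, had -1.02 at 1.40 RPKM, FOXO1, a forkhead factor that 14-3-3 keeps out of the nucleus, had -0.57, CRTC1, a CREB coactivator gene, had 0.57 and HDAC7 had 0.37 in the authors' deposited table. YAP1 and WWTR1, the Hippo pathway coactivator genes, were under 1 RPKM, at 0.839 and 0.125. Metabolic, cytoskeletal and mRNA-binding clients had 6 of 9 above 0, all 9 between -0.32 and 0.32. The extremes were TBC1D1, a regulator of glucose transporter traffic, at -0.32, and ZFP36, an mRNA decay factor, at 0.32 in the authors' deposited table, with TBC1D4 at 0.31 and LARP1, which binds ribosomal protein mRNAs, at 0.22.

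Enzymes that write and erase the phosphorylated sites lay close to 0 for the most part. Of 22 kinase genes 19 had at least 1 RPKM, 10 above 0 and 9 below, with a median of 0.02 and a range from -0.35 to 0.42. The most extreme were STK11, the master kinase LKB1, at 0.42, CHEK2, a DNA damage kinase, at 0.40, PRKACB, a protein kinase A subunit, at -0.35 and SIK1, a salt-inducible kinase, at 0.35 in the authors' deposited table. PIM2, a survival kinase abundant in plasma cells, had the highest level among them, 166 RPKM, with -0.05. Of the 5 catalytic subunit genes of the phosphatases PP1 and PP2A, PPP1CB had -0.71 at 32.1 RPKM in the authors' deposited table (implied SE 0.89), and the other 4 lay between -0.12 and 0.09.

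**Figure D4:**
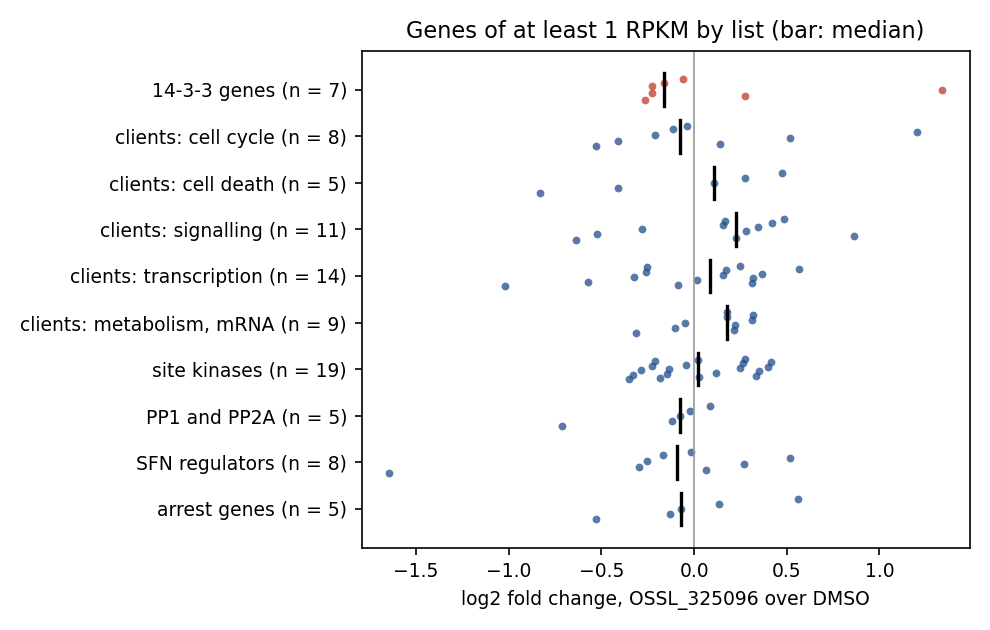
Horizontal axis: log2 of the fold change, OSSL_325096 over DMSO, for each gene of at least 1 RPKM in 10 lists, with the 14-3-3 genes in red and a black bar at each list's median. List medians lie between -0.16 and 0.23, and SFN, CCNB1, HDAC9 and TP63 are the points at least 2-fold from 1.

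Marker genes were set beside the label of the cells. Each level is a mean over both lines, so a marker can reach 1 RPKM through 1 line alone. The label of each line was therefore not checked. All 9 plasma cell markers had at least 1 RPKM, from 6.26 RPKM for SLAMF7 to 189 RPKM for MZB1, and the B cell genes MS4A1 and PAX5 were at 0 and 0.00498 RPKM in the authors' deposited table. CIITA and BACH2, also B cell genes, were at 4.95 and 3.94 RPKM there. Epithelial genes were listed because SFN was first described there. Of 14 such markers 12 were under 1 RPKM, as were 80.4% of all gene rows, with KRT14 and LCN2 at 0 and KRT18 at 0.445 RPKM. The other 2 were EPCAM, at 15.8 RPKM with a log2 fold change of -0.18, and ESRP1, an epithelial splicing regulator, at 8.44 RPKM with -0.63 in the authors' deposited table. The 14 markers summed to 25.5 RPKM, most of it from EPCAM and ESRP1. By the sign of their fold changes, the group means of these 2 are those with DMSO. The group mean of SFN, 67.1 RPKM, is that with OSSL_325096. With DMSO the implied level of SFN was 26.5 RPKM, close to the sum of the markers.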

How the data were processed

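RNA of 4 libraries was captured with oligo(dT) beads and primed with random hexamers, per the labels' protocols. Per the series' design text, the authors mapped reads to hg19 and computed RPKM and the comparison in Biomedical Genomics Workbench 5. The deposited RPKM column holds the higher of the treatment means. The log2 fold change, its signed fold score and the p-value columns were deposited by the authors, and the labels give neither their model nor the depth.

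Implied SE is the size of the log2 fold change over the two-sided normal quantile that its deposited p-value gives. Genes of at least 1 RPKM were kept (11324 of 23130 with a fold change), with Benjamini-Hochberg adjustment over them. GC content and length are medians over GENCODE 44 transcripts (98.1% of genes kept), and a regression of degree 3 removed their trend (14.8% of variance), after it was tested on simulated data. Members, lists and tests were chosen with earlier results of these data known. Named genes are the members, up to 4 members per list furthest from 1, the SFN regulators, the nearest genes and the 5 genes most like SFN; others were chosen with values in view. A few list members are not reported here. Python 3.11.15, pandas 2.3.3, scipy 1.17.1 and Biopython 1.88 were used.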

Additional observations from a re-analysis of the deposited data

How the results depend on the processing

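Over 10 results, 26 alternative values were computed and all 26 moved by less than the implied SE or, for counts, stayed equal. The implied SEs of the members ran from 0.86 to 1.72, so changes of processing like these could hardly exceed them. A median has no implied SE of its own, so for medians this bound measures no spread. Nothing is concluded from the count of 26. SFN had 1.33 when centred on the median of all genes and 1.12 with the GC content and length trend removed. The family median was -0.17 and -0.04 under these, and -0.19 without SFN. The client median ran from 0.08 with the trend removed to 0.16 with no minimum (50 genes) or a minimum of 5 RPKM (36 genes). The count of members at least 1.5-fold from 1 was 1 under each alternative, 2-fold included. No paired analysis was possible because the values used are of both lines together. For the same reason leaving out each replicate was not run. No depth is known, and with it no counting interval.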

Other observations

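YWHAG, the other member above 0, lies 22504 bases from HSPB1, the small heat shock protein gene, on the opposite strand. In the authors' deposited table YWHAG had a log2 fold change of 0.27 at 110.9 RPKM, and HSPB1 had 0.88 at 642 RPKM. SRCRB4D, on the other side of YWHAG, had 0.29 at 1.06 RPKM there. Other members varied in this. YWHAE, at -0.23, lay between ABR at 0.35 and CRK at 0.24, while YWHAQ and its neighbour ADAM17 were both below 0, at -0.16 and -0.38. Whether the position matters was not tested.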
